A study of Mus musculus with 3 samples.

Results

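Excitatory synapses of the hippocampus rest on AMPA and NMDA receptors, and 9 of their subunit genes are described here across cell types and libraries of mouse hippocampal nuclei. The genes were chosen by name, as the rows of the deposited gene lists with the symbols Gria1, Gria2, Gria3, Gria4, Grin1, Grin2a, Grin2b, Grin2c and Grin3a. They are 9 of 32285 genes, 4 of them AMPA (Gria) and 5 of them NMDA (Grin) receptor genes. No measured value entered that choice.

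The study sequenced RNA of single nuclei from frozen mouse hippocampus with a 10x Genomics kit that reads the 3′ end of transcripts. There were 3 libraries, 1 per group: doxorubicin plus ACY-1083 (labelled DoxACY), doxorubicin alone (Dox), and control mice with no treatment. Each library was made from both hippocampi of 4 mice, combined before the nuclei were isolated, so a group is 1 pool and the spread between mice cannot be seen. Doxorubicin is a chemotherapy drug that poisons topoisomerase II, and ACY-1083 inhibits the cytoplasmic deacetylase HDAC6. The labels give no strain, sex, age, dose or schedule, and no mice given ACY-1083 alone.

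AMPA receptors are tetramers of GluA subunits, encoded by Gria1 to Gria4, and carry most of the fast excitatory current in the brain. The GluA2 transcript, made from Gria2, is edited by the RNA deaminase ADAR2 (gene Adarb1) so that a glutamine codon in the pore loop is read as arginine, and receptors that hold the edited subunit pass little calcium. NMDA receptors open only when glutamate and a co-agonist bind and the membrane is depolarised, which makes them detectors of coincident activity in synaptic plasticity. Each contains the obligatory GluN1 subunit (Grin1), joined by GluN2 subunits (such as those of Grin2a, Grin2b and Grin2c) that bind glutamate and set channel kinetics, or by GluN3 subunits such as that of Grin3a, which lower calcium entry and magnesium block.

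The AMPA genes are alike around this codon, and 60 coding bases of each are shown because the codon encodes glutamine in all 4 genes, and Gria2 RNA differs in what it encodes there once it is edited. The sequences are from GENCODE vM21 transcripts of GRCm38, on the coding strand, 5′ to 3′. The capitals mark the codon of the pore-loop glutamine, named the Q/R site, and the same window was found in each coding transcript of a gene that holds it.
Gria1: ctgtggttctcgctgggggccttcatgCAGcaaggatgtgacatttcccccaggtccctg
Gria2: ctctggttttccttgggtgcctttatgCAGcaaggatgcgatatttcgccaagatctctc
Gria3: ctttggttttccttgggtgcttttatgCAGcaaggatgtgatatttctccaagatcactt
Gria4: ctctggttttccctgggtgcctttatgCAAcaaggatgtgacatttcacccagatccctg
The glutamine codon was CAG in Gria1, Gria2 and Gria3 and CAA in Gria4. Gria2 and Gria3 shared 54 of the 60 bases (90%), the closest of the 6 pairs, and Gria1 shared 47 of 60 (78.3%) with each of them. Counts of UMIs (unique molecular identifiers, 1 per captured transcript molecule) say how much Gria2 RNA was caught and nothing of how much of it was edited.

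On GRCm38 the AMPA genes lie at chr11:57011387-57330244 (Gria1), chr3:80681450-80802835 (Gria2), chrX:41400854-41678601 (Gria3) and chr9:4417896-4796234 (Gria4). The NMDA genes lie at chr2:25291181-25319187 (Grin1), chr16:9567898-9995560 (Grin2a), chr6:135713233-136173511 (Grin2b), chr11:115249169-115267243 (Grin2c) and chr4:49661611-49845744 (Grin3a). Most are long: 7 of the 9 hold over 100 kb of intron, from 106 kb in Gria2 and 172 kb in Grin3a to 372 kb in Gria4, 409.7 kb in Grin2a and 435 kb in Grin2b. Grin1, with 18.3 kb of intron, and Grin2c, with 13.0 kb, are the compact ones. Intron length is given because the libraries differ in the share of UMIs on genes with long introns.

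The doxorubicin plus ACY-1083 library stood apart before any gene was compared. DoxACY held 62151258, Dox 21458785 and control 19175447 UMIs, with medians of 3912.5, 1485 and 1487 per barcode. Genes with over 100 kb of intron took 50.2% of UMIs in DoxACY, 17.8% in Dox and 18.6% in control, and Malat1, a nuclear RNA, took 7.66%, 23.3% and 21.7%. The DoxACY matrix was also written by another version of Cell Ranger, so drug, library and processing cannot be told apart in it. After filters on genes, mitochondrial RNA and doublets, 11846 nuclei of DoxACY, 11647 of Dox and 10455 of control were kept. From 29 to 46 cell barcodes were shared by each pair of libraries.

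Nuclei were clustered without the 9 genes and named from marker lists, and a class name below stands for nuclei whose markers look like that type. The 12 classes with at least 100 nuclei in every library were dentate gyrus granule neurons, CA1 pyramidal neurons, CA2 and CA3 pyramidal neurons, subicular and cortical excitatory neurons, thalamic and habenular neurons, GABAergic neurons, oligodendrocyte precursor cells, oligodendrocytes, astrocytes, microglia, fibroblast-like cells and choroid plexus epithelium. Of their own markers, the thalamic and habenular class had 5 of 8 above the rest in every library, a smaller part than any other class. Most Dox and control nuclei of granule neurons, both pyramidal classes, oligodendrocytes and astrocytes shared a cluster, whereas those of DoxACY lay mostly in another cluster of the same name. The subicular and cortical class pools several clusters, and its main one held 46.1%, 82.1% and 84.8% of its nuclei in DoxACY, Dox and control. Another held 380 DoxACY, 19 Dox and 21 control nuclei, so this class is a different mix of clusters in DoxACY.

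A level is given in CPM, the gene's share of all UMIs of that class and library scaled to 1000000 UMIs, with an exact 95% Poisson interval. With 1 library a group there is no test and no p-value, and every interval covers counting error only. The 9 genes together had 636639 UMIs in DoxACY, 203405 in Dox and 187226 in control, or 10696, 10039 and 10312 CPM. Levels are compared within a gene only, since capture differs between genes.

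**Figure D1:**
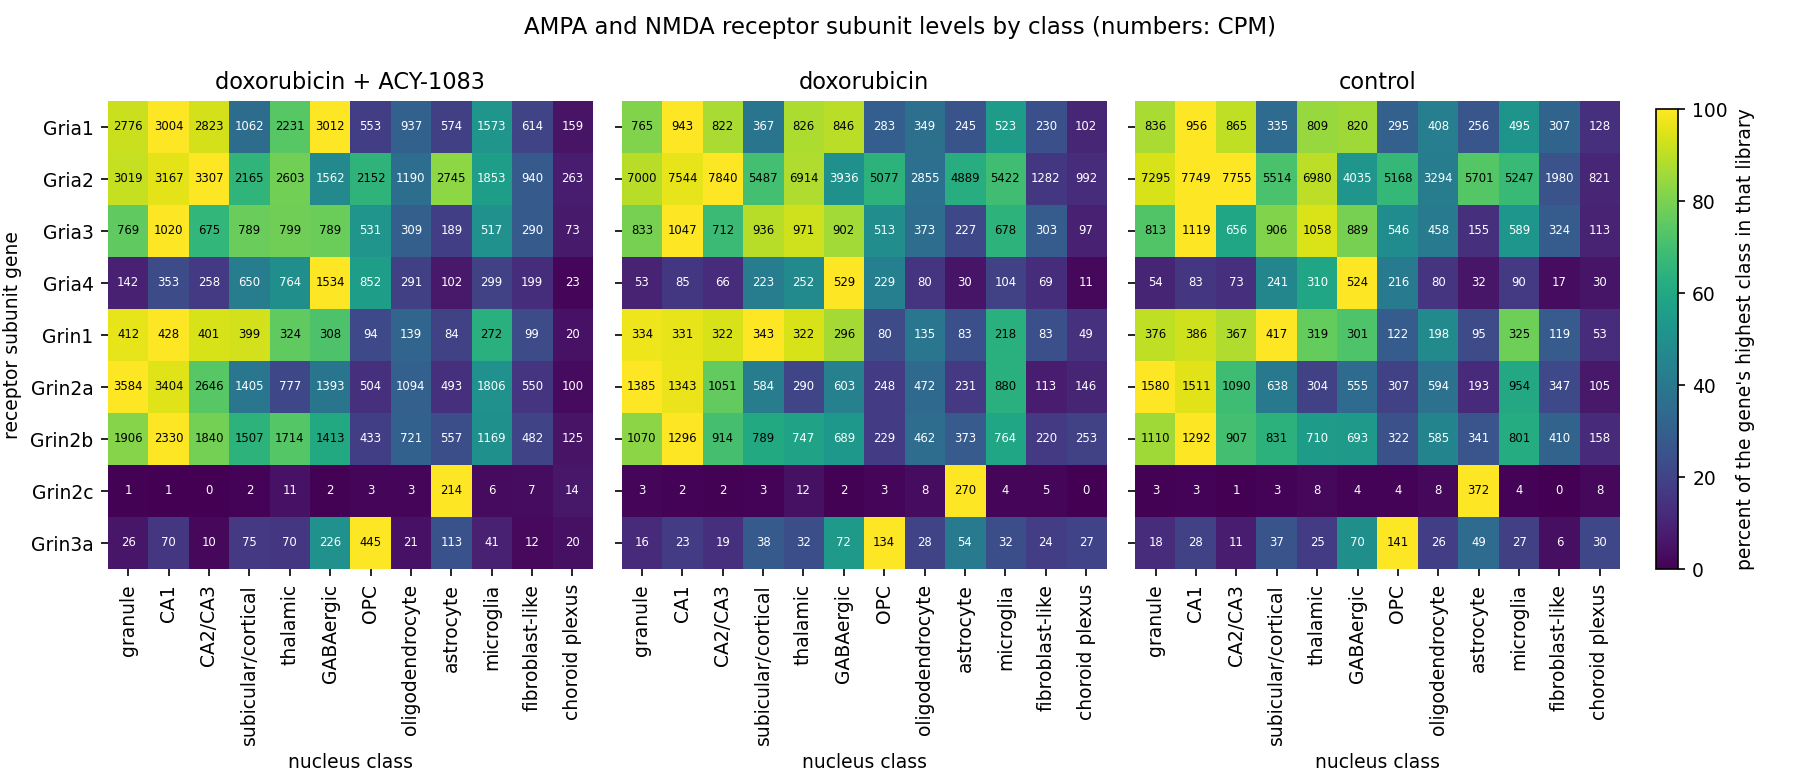
Level of each subunit gene (rows) in the 12 nucleus classes (columns) of the doxorubicin plus ACY-1083, doxorubicin and control libraries, with the CPM written in each cell and the colour giving the percent of the gene's highest class in that library. OPC are oligodendrocyte precursor cells. Gria4 is brightest in GABAergic neurons, Grin2a in granule neurons, Grin2c in astrocytes and Grin3a in OPC in all 3 panels, and Grin1 is nearly level over the neuron classes.

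Gria2, the subunit that makes AMPA receptors poorly permeable to calcium once edited, was highest in CA2 and CA3 neurons in all 3 libraries. It had 3307 (3264 to 3350), 7840.0 (7722 to 7959) and 7755 (7629 to 7883) CPM there in DoxACY, Dox and control. CA1 neurons followed with 3167, 7544 and 7749 CPM in DoxACY, Dox and control, overlapping the CA2 and CA3 value in the control library alone. Granule neurons came next with 3019, 7000.0 and 7295 CPM in DoxACY, Dox and control. GABAergic neurons were the lowest of the 6 neuron classes, at 1562 (1529 to 1596), 3936 (3838 to 4036) and 4035 (3936 to 4135) CPM in DoxACY, Dox and control. The span from the lowest to the highest neuron class was thus about the same in each library, at 2.12-fold, 1.99-fold and 1.92-fold in DoxACY, Dox and control.

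Gria2 was also plentiful in astrocytes, with 2745 (2676 to 2815), 4889 (4760 to 5020) and 5701 (5542 to 5864) CPM in DoxACY, Dox and control. All 3 values lie above those of GABAergic neurons in the same library. Oligodendrocyte precursor cells, the proliferating glia that receive synapses from neurons, had 2152, 5077 and 5168 CPM in DoxACY, Dox and control. Choroid plexus epithelium, a secretory tissue with no synapses, gives a yardstick for free RNA in the droplets, and its Gria2 stood at 263 (217 to 315), 992 (854 to 1146) and 821 (674 to 991) CPM in DoxACY, Dox and control. After each nucleus was thinned to 1000 UMIs, Gria2 was found in 87.3%, 91.2% and 92.5% of astrocytes in DoxACY, Dox and control, against 22.1%, 44.1% and 40.8% of choroid plexus nuclei. Unthinned, the shares were 94.8%, 91.0% and 92.3% of astrocytes, at medians of 1839.5, 852 and 797.5 UMIs, and 53.7%, 47.1% and 45.5% of choroid plexus nuclei, at medians of 3326, 1215.5 and 1226 UMIs in DoxACY, Dox and control. Gria2 in astrocytes was therefore above its level in choroid plexus, although the astrocytes were the shallower class. Choroid plexus held the least neuron marker RNA of these classes, so it is a low yardstick. Microglia had 1853 (1774 to 1935), 5422 (5231 to 5619) and 5247 (5053 to 5447) CPM of Gria2 in DoxACY, Dox and control, above GABAergic neurons in each library and above astrocytes in Dox. Thinning left out 57 DoxACY, 804 Dox and 753 control astrocytes below 1000 UMIs.

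The RNA of neurons was also present in glial classes, as the summed level of 4 neuron markers (Snap25, Rbfox3, Syt1 and Meg3, all 4 detected in every class) shows. These markers came to 2541, 3769 and 3395 CPM in astrocytes of DoxACY, Dox and control, against 12135, 23280 and 25256 CPM in their CA1 neurons. Microglia held more, at 5682, 12463 and 11644 CPM, and oligodendrocytes had 3296, 7554 and 9243 CPM in DoxACY, Dox and control. Precursor cells had 2801, 5941 and 6425 CPM, choroid plexus 1107, 2425 and 2667 CPM, and the fibroblast-like class 3011, 4218 and 5661 CPM in DoxACY, Dox and control. The part of this RNA in the levels of the 9 genes in glial, fibroblast-like and choroid plexus classes was not tested, apart from the comparison with choroid plexus, and microglia combined high neuron marker RNA with high Gria2.

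Gria1, the AMPA subunit whose phosphorylation and delivery accompany long-term potentiation, had its top level in CA1 neurons of the doxorubicin and control libraries, at 943 (913 to 975) and 956 (922 to 991) CPM. In the doxorubicin plus ACY-1083 library CA1 neurons had 3004 (2974 to 3034) CPM, within counting error of GABAergic neurons at 3012 (2966 to 3058) CPM. Subicular and cortical excitatory neurons were the lowest neurons in each library, at 1062 (1038 to 1085), 367 (344 to 391) and 335 (314 to 357) CPM in DoxACY, Dox and control. Excitatory neurons therefore did not share 1 level of Gria1: between CA1 and the subicular and cortical class it differed by 2.57-fold in Dox and 2.86-fold in control.

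Gria1 also differed among interneurons. Those with markers of the medial ganglionic eminence (Lhx6, Sst, Pvalb, Sox6, Nxph1 and Satb1) had 4183 (4101 to 4266), 1085 (1011 to 1163) and 1072 (1000.5 to 1147) CPM in DoxACY, Dox and control. Those with markers of the caudal ganglionic eminence (such as Adarb2, Vip, Cnr1 and Npas1) had 1238 (1178 to 1300), 454 (385 to 532) and 437 (375 to 507) CPM in DoxACY, Dox and control. The 2 subclasses do not overlap in any library. They rest on 327, 358 and 360 medial and 200, 193 and 202 caudal nuclei in DoxACY, Dox and control, and the larger of the 2 clusters of the medial subclass, with 541 nuclei over the libraries against 504 in the other, has no own marker among its 10 leading genes. The GABAergic class, of 750, 772 and 750 nuclei in DoxACY, Dox and control, also holds 4 unnamed clusters, 1 of which, of 162 nuclei over the libraries, has Arpp21 and Sv2b, genes typical of excitatory neurons, among its leading genes. Lamp5, also on the caudal marker list, is among the leading genes of unnamed clusters of 312 and 112 nuclei, which the caudal values leave out.

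Gria3, an X-linked AMPA subunit, varied least among neuron classes of the 4 AMPA genes, from 675 CPM in CA2 and CA3 to 1020.1 CPM in CA1 neurons of the doxorubicin plus ACY-1083 library. The doxorubicin library gave 712 and 1047 CPM for the same pair of classes, and the control library 656 and 1119 CPM. CA1 was the highest of the 12 classes in all 3 libraries, though its interval overlaps that of thalamic and habenular neurons in the doxorubicin and control libraries. Interneurons parted more widely: medial-type interneurons had 1274 (1228 to 1320), 1388 (1304 to 1476) and 1435 (1352 to 1522) CPM, and caudal-type ones 231 (205 to 259), 298 (243 to 362) and 226 (182 to 277) CPM in DoxACY, Dox and control. That gap was wider than any gap in Gria3 between excitatory classes.

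Gria4, a subunit with fast kinetics typical of interneurons and of some thalamic and brainstem neurons, was the AMPA gene with the sharpest preference. GABAergic neurons had 1534 (1501 to 1567), 529 (494 to 567) and 524 (489 to 561) CPM in DoxACY, Dox and control. Granule neurons, at the bottom of the neuron classes, had 142 (135 to 148), 52.6 (45.8 to 60.2) and 54.0 (46.8 to 62.0) CPM in DoxACY, Dox and control. The gap was 10.8-fold, 10.1-fold and 9.71-fold in DoxACY, Dox and control, so nearly the same in each library although the level itself was not. Thalamic and habenular neurons had 764, 252 and 310.4 CPM, and oligodendrocyte precursor cells had 852 (792 to 915), 229 (179 to 289) and 216 (163 to 281) CPM in DoxACY, Dox and control. These were the classes next to GABAergic neurons, except that subicular and cortical neurons, at 241 CPM, also exceeded precursor cells in the control library, within counting error.

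Within the GABAergic class Gria4 was again higher in the medial than in the caudal subclass, at 2049, 678 and 667 CPM against 1103, 354 and 368 CPM in DoxACY, Dox and control. Choroid plexus held 10, 2 and 4 UMIs of Gria4 in DoxACY, Dox and control. After thinning, Gria4 was found in 69.3%, 35.0% and 36.7% of GABAergic nuclei, in 11.1%, 4.40% and 4.59% of granule nuclei and in 0.820%, 1.08% and 2.63% of choroid plexus nuclei in DoxACY, Dox and control. Without thinning, at medians of 6136, 1799 and 1828 UMIs, 95.9%, 55.4% and 54.8% of GABAergic nuclei in DoxACY, Dox and control held it.

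**Figure D2:**
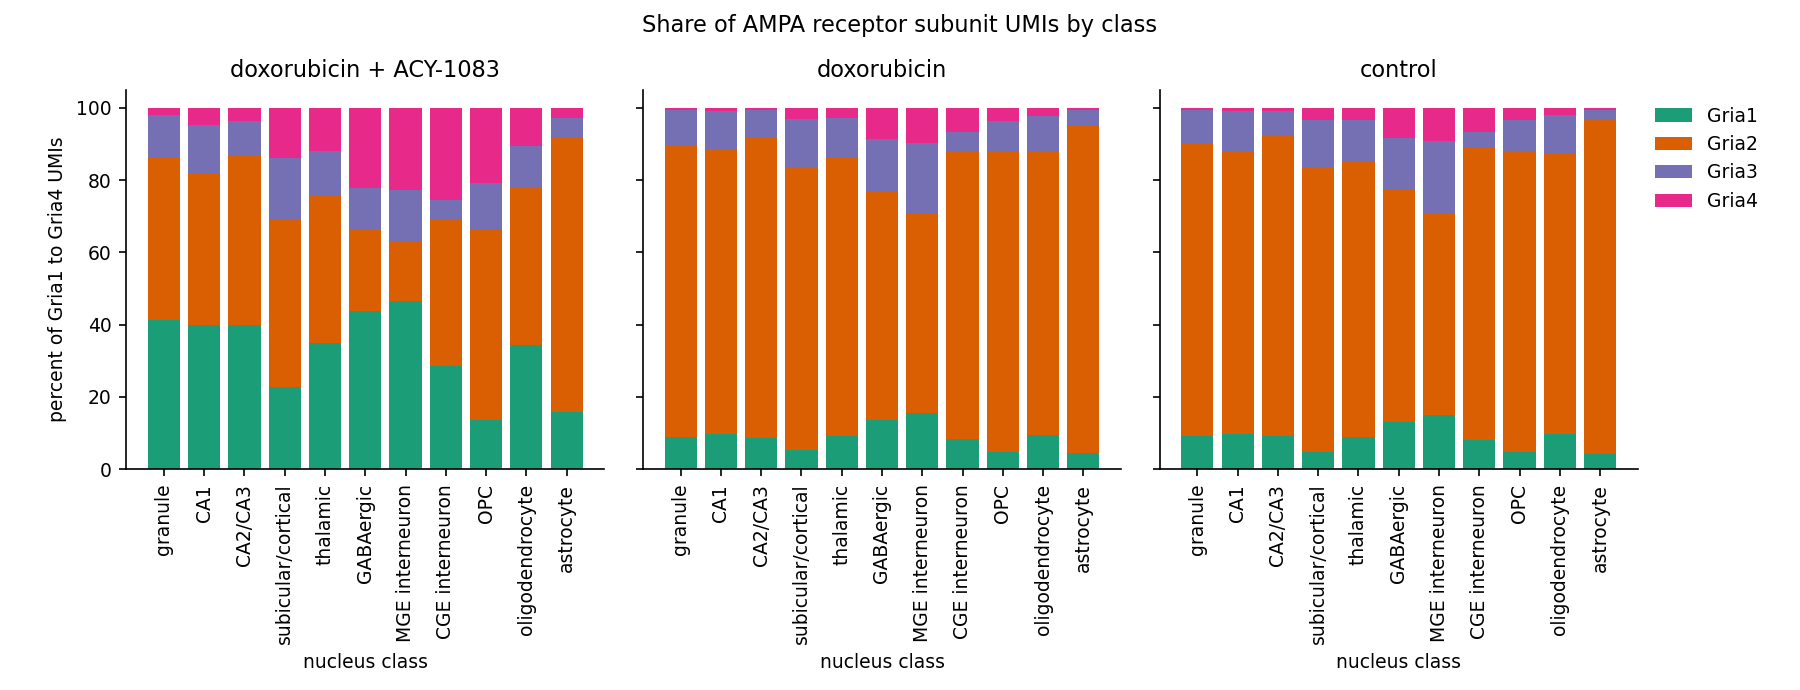
Share of the UMIs of Gria1 to Gria4 that each gene held (percent), by neuron class, interneuron subclass (CGE and MGE, caudal and medial ganglionic eminence) and glial class, in each library. Gria2 holds the smallest share in MGE interneurons and the largest in astrocytes in all 3 libraries.

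The AMPA genes were next set against each other as shares of their summed UMIs, which describes captured RNA and not receptor protein. In medial-type interneurons Gria2 held 16.5% of AMPA UMIs in DoxACY, 55.1% in Dox and 55.6% in control. In caudal-type interneurons it held 40.6%, 79.3% and 81.2%, close to CA1 neurons at 42.0%, 78.4% and 78.2% in DoxACY, Dox and control. The caudal subclass thus did not have the low Gria2 share of the medial one. GABAergic neurons as a whole, which also hold interneurons of neither subclass, had 22.7%, 63.3% and 64.4% in DoxACY, Dox and control. The rest in the medial subclass was Gria1 (46.5%, 15.5% and 14.98%), Gria3 (14.2%, 19.8% and 20.1% in DoxACY, Dox and control) and Gria4.

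Among excitatory neurons the Gria2 share was highest in CA2 and CA3, at 46.8%, 83.0% and 82.9%, with granule neurons at 45.0%, 80.9% and 81.1% in DoxACY, Dox and control. Astrocytes exceeded both, at 76.0%, 90.7% and 92.8% in DoxACY, Dox and control. Precursor cells had 52.6%, 83.2% and 83.0% Gria2, and their Gria4 share of 20.8%, 3.76% and 3.47% was several times that of granule neurons (2.11%, 0.609% and 0.600% in DoxACY, Dox and control). In each library astrocytes held the largest Gria2 share and medial-type interneurons the smallest, but the order between them varied. Subicular and cortical neurons, at 46.4%, 78.2% and 78.8% in DoxACY, Dox and control, were above granule neurons in DoxACY alone. The shares of the doxorubicin plus ACY-1083 library were shifted away from Gria2 in every one of these classes. Gria2 is the AMPA gene with the shortest introns and the one whose Q/R codon, CAG in the window shown above, is edited in adult brain.

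Grin1, the subunit that every NMDA receptor needs, was the most even of the genes over neurons. Its lowest and highest neuron classes differed by 1.39-fold, 1.16-fold and 1.38-fold in DoxACY, Dox and control. CA1 neurons had 428 (417 to 439), 331 (312 to 349) and 386 (365 to 408) CPM, and granule neurons had 412 (401 to 424), 334 (317 to 353) and 376 (357 to 397) CPM in DoxACY, Dox and control. GABAergic neurons were at the low end with 308 (294 to 323), 296 (270 to 325) and 301 (275 to 330) CPM in DoxACY, Dox and control. All neighbouring neuron classes overlap in the doxorubicin library. The glia had less, with 83.6, 83.1 and 95.3 CPM in astrocytes and 93.7, 79.6 and 122 CPM in precursor cells in DoxACY, Dox and control. Grin1 in microglia, at 272, 218 and 325 CPM in DoxACY, Dox and control, was nearer to neurons, in a class that also held the highest neuron marker RNA of the glia.

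Grin2a, the GluN2 subunit that rises after birth and gives fast-decaying NMDA currents, was highest in granule neurons in all 3 libraries. They had 3584 (3551 to 3617), 1385 (1349 to 1421) and 1580.0 (1540 to 1621) CPM in DoxACY, Dox and control. CA1 neurons had 3404, 1343 and 1511 CPM in DoxACY, Dox and control, overlapping granule neurons in the doxorubicin and control libraries. Thalamic and habenular neurons were the lowest neurons, at 777 (740 to 816), 289.9 (254 to 330) and 304 (257 to 358) CPM in DoxACY, Dox and control. The ratio of granule to thalamic and habenular neurons was 4.61, 4.78 and 5.19 in DoxACY, Dox and control, the widest neuronal range of the long NMDA genes apart from Grin3a.

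Grin2b, the GluN2 subunit that dominates early in development and carries the site where the kinase CaMKII docks, varied less. It was highest in CA1 neurons, at 2330.4 (2304 to 2357), 1296 (1260 to 1333) and 1292 (1253 to 1332) CPM in DoxACY, Dox and control. Granule neurons had 1906, 1070.0 and 1109.6 CPM in DoxACY, Dox and control and overlap CA1 in none of the libraries. GABAergic neurons had 1413, 689 and 693 CPM in DoxACY, Dox and control, the lowest of the 6 neuron classes. From the lowest to the highest neuron class Grin2b spanned 1.65-fold, 1.88-fold and 1.86-fold in DoxACY, Dox and control.

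**Figure D3:**
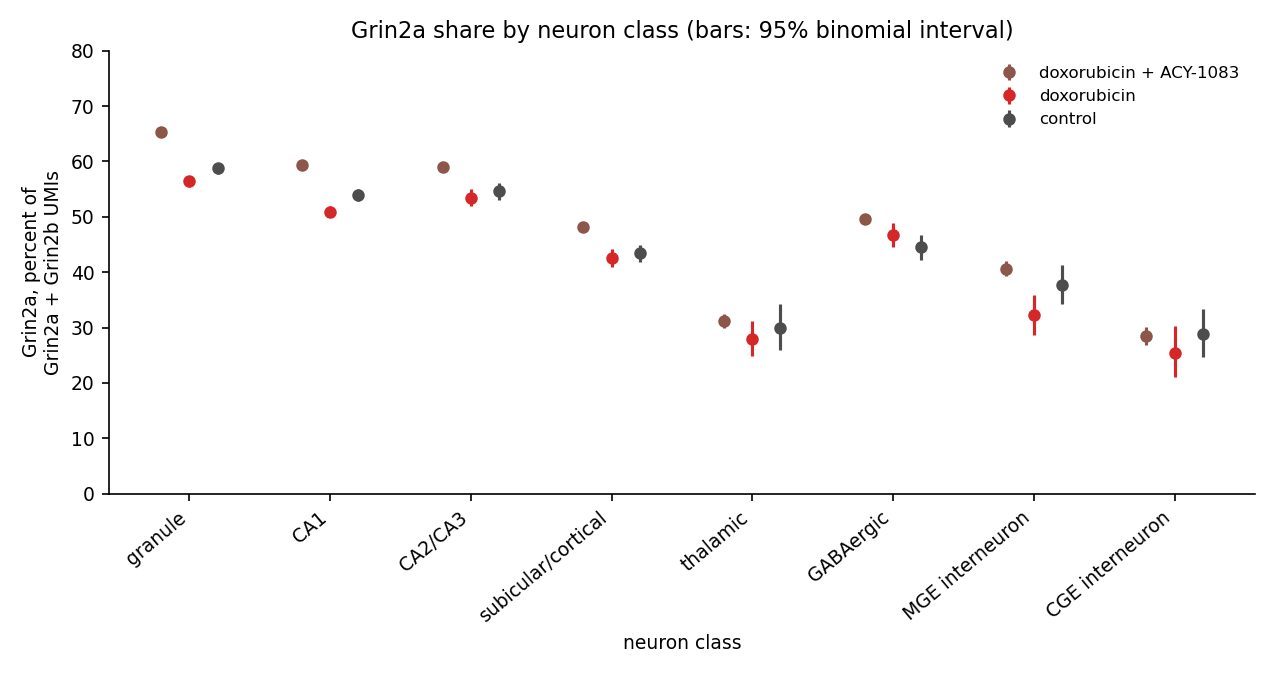
Grin2a as a percent of the summed Grin2a and Grin2b UMIs in the 6 neuron classes and 2 interneuron subclasses (CGE and MGE, caudal and medial ganglionic eminence), 1 point per library with exact 95% binomial intervals. Granule neurons are highest in all 3 libraries, and CGE interneurons are lowest.

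The balance of the 2 GluN2 genes differed widely between neuron classes. Grin2a made up 65.3% (64.9 to 65.6), 56.4% (55.4 to 57.4) and 58.7% (57.8 to 59.7) of Grin2a plus Grin2b UMIs in granule neurons of DoxACY, Dox and control. CA1 neurons had 59.4%, 50.9% and 53.9%, and CA2 and CA3 neurons 59.0%, 53.5% and 54.6% in DoxACY, Dox and control. Subicular and cortical neurons were below them at 48.2%, 42.6% and 43.4% in DoxACY, Dox and control. Thalamic and habenular neurons, at 31.2%, 28.0% and 30%, and caudal-type interneurons, at 28.5%, 25.5% and 28.9% in DoxACY, Dox and control, held the smallest shares. Medial-type interneurons lay between, at 40.6%, 32.2% and 37.7% in DoxACY, Dox and control. Intervals are exact binomial ones, and the share in a class was lower in Dox than in control in 7 of these 8 classes and subclasses. The exception was GABAergic neurons as a whole, at 49.6% in DoxACY, 46.7% in Dox and 44.5% in control, and this class also holds interneurons of neither subclass. The Dox and control intervals were apart in granule and CA1 neurons.

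Grin2c, a GluN2 subunit best known from cerebellar granule cells, was an astrocyte gene in these nuclei. Astrocytes had 214 (195 to 234), 269.7 (240.2 to 302) and 372 (332 to 415) CPM, from 473, 302 and 316 UMIs in DoxACY, Dox and control. No other class passed 13.6 CPM in any library. Granule neurons, for one, had 13, 14 and 10 UMIs of it in DoxACY, Dox and control. Thalamic and habenular neurons, next in the doxorubicin and control libraries, had 10.6, 12.4 and 8.28 CPM in DoxACY, Dox and control.

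After thinning to 1000 UMIs, Grin2c was found in 18.6% (16.2 to 21.3), 20.2% (16.1 to 24.9) and 26.3% (20.5 to 32.7) of astrocytes in DoxACY, Dox and control. In choroid plexus nuclei it was found in 0 of 122, 0 of 93 and 1 of 76 in DoxACY, Dox and control after thinning. Unthinned, 33.8%, 22.6% and 27.5% of astrocytes in DoxACY, Dox and control held it. Choroid plexus of the doxorubicin library held no Grin2c UMI, which at a limit of 3 counts allows up to 16.2 CPM. Neuron marker RNA and Grin2c did not go together: the neurons that carry the markers had almost none.

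Grin3a, which encodes a GluN3 subunit that makes NMDA receptors less permeable to calcium, was highest in oligodendrocyte precursor cells in all 3 libraries. They had 445 (402 to 491), 134 (96.4 to 181) and 141 (99.1 to 196) CPM, from 394, 42 and 36 UMIs in DoxACY, Dox and control. GABAergic neurons were second with 226 (213 to 239), 71.7 (59.0 to 86.3) and 70.3 (57.8 to 84.6) CPM in DoxACY, Dox and control, below precursor cells with no overlap in any library. CA2 and CA3 neurons had 10.4, 18.6 and 10.8 CPM and granule neurons 26.4, 16.4 and 18.1 CPM in DoxACY, Dox and control. Grin3a was thus scarce in principal neurons of the dentate gyrus and of CA3.

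Among interneurons the medial subclass had 305 (283 to 328), 93.9 (73.1 to 119) and 94.1 (73.7 to 118) CPM of Grin3a, against 129, 56.1 and 34.8 CPM in the caudal subclass, in DoxACY, Dox and control. In the interneuron cluster led by Sst, a marker of somatostatin cells, Grin3a was itself among the leading genes, though it played no part in the clustering. After thinning, 35.3%, 14.4% and 7.14% of precursor cells held Grin3a, against 2.46%, 2.15% and 3.95% of choroid plexus nuclei in DoxACY, Dox and control. Only 97 precursor cells of the doxorubicin and 56 of the control library reached 1000 UMIs, so the last of these shares, at 1.98% to 17.3%, was not separable from choroid plexus. Before thinning the shares were 61.2%, 12.1% and 12.9% of precursor cells, at medians of 2348, 851 and 745 UMIs, and 5.69%, 2.90% and 3.96% of choroid plexus nuclei in DoxACY, Dox and control.

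In all, 7 of the 9 genes had the same highest class in each of the 3 libraries: Gria2 (CA2 and CA3), Gria3 (CA1), Gria4 (GABAergic), Grin2a (granule), Grin2b (CA1), Grin2c (astrocytes) and Grin3a (precursor cells). The exceptions were Gria1, whose first and second classes overlapped in DoxACY but not in Dox or control, and Grin1, whose first and second classes overlapped in each library. Between Dox and control all 9 had the same highest class.

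The genes whose levels over the 12 classes ran most closely with each subunit were listed as a description. The measure is the lowest of 3 Pearson correlations of log2(CPM + 20), 1 per library, among 10090 genes with at least 20 CPM in a class of each library. The 12 points share a library and its depth, and no p-value is given. Grin1 ran with Unc13a (0.980), a vesicle priming factor, Syt1 (0.979), the calcium sensor of vesicle fusion, and Sptbn4 (0.974), a spectrin of axon initial segments. Grin2c ran with Etnppl (0.978), an astrocyte enzyme of ethanolamine phosphate breakdown, C030018K13Rik (0.976) and Aqp9 (0.973), a channel for water and glycerol.

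The same measure put Gria3 beside Grm5 (0.969), a metabotropic glutamate receptor, Myt1l (0.961), a neuronal transcription factor, and Arfgef3 (0.959). For Gria2 the nearest were Adgrb1 (0.937), Soga3 (0.928) and Adgrb3 (0.921), and for Gria1 they were Dgkg (0.934), a diacylglycerol kinase, C78859 (0.932) and Unc13a (0.903). Grin2a had Faah (0.937), which degrades the endocannabinoid anandamide, and Plxna4 (0.919), a semaphorin receptor. Beside Grin2b stood Pigk (0.938), Sptbn4 (0.936) and Ryr2 (0.932), a calcium release channel. Gria4 was nearest to Frmd3 (0.913), Dcx (0.894), a microtubule protein of migrating neurons, and St6gal2 (0.879). Grin3a had the loosest neighbours, Nrxn2 (0.851), a presynaptic adhesion protein, Ptprt (0.826) and Tox3 (0.813).

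Whether doxorubicin changed the subunits was asked by setting the doxorubicin against the control library within each class. In neurons little moved: no member passed the rule for a difference in any of the 6 neuron classes. A pair of a gene and a class entered with at least 100 UMIs over both libraries, and counted as different when its CPM was at least 25% higher or 20% lower with a 95% interval of the ratio that left out 1. Of 108 pairs, 79 entered and 29 had too few UMIs. Of the 79, 1 was higher and 8 were lower, against 9.22% of all 50348 pairs of genes and classes that entered, 4.03% higher and 5.19% lower. The 9 of 79 was close to that pooled share, but the calls were unevenly spread. None of the 46 neuron pairs was called, although 7.9% to 9.14% of all genes passed in each neuron class. All 9 lay among the 33 pairs of the 6 other classes, where 9.14% to 19.9% of all genes passed in each class.

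**Figure D4:**
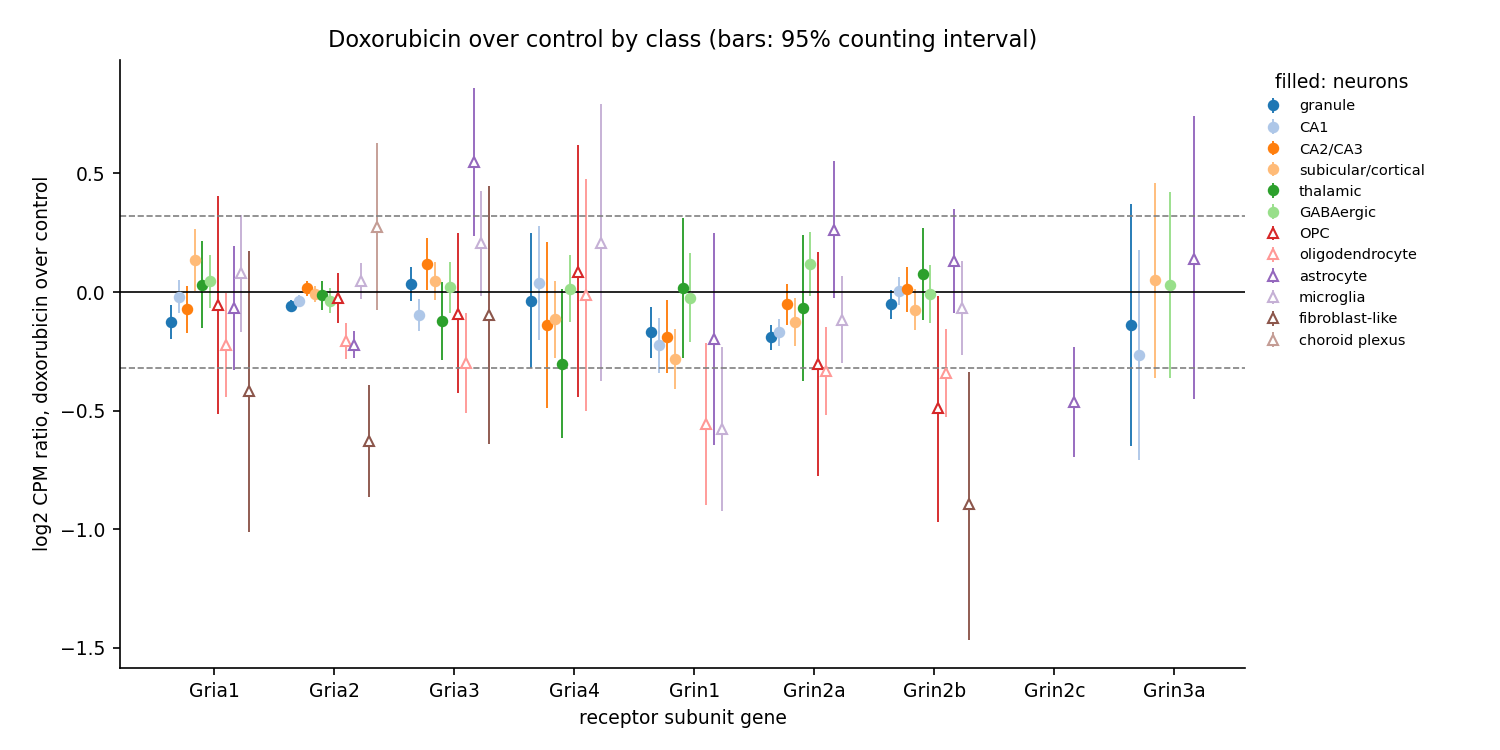
Log2 ratio of CPM in the doxorubicin over the control library for each subunit gene in each class, with 95% counting intervals and dashed lines at the limits of the rule. Filled points are neurons and OPC are oligodendrocyte precursor cells. The 46 neuron pairs lie inside the limits, between -0.30 and 0.13, and the 9 pairs that pass are in glia and fibroblast-like cells.

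The 46 neuron pairs had log2 ratios from -0.30 to 0.13, with a median of -0.04, beside a median of -0.06 over all genes of granule and CA1 neurons. By family, 43 AMPA pairs entered, with 1 higher and 1 lower, and 36 NMDA pairs, with none higher and 7 lower. Over all kept nuclei none of the 9 genes passed, against 6.75% of 13803 genes. Gria2 had a ratio of 0.986 (0.978 to 0.994) there, Gria1 0.998 and Gria3 0.990.

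Grin1 was the member that leaned lower most evenly. Its CPM ratio of doxorubicin to control was 0.864 (0.833 to 0.895) over all kept nuclei, short of the 20% limit. It was 0.856 (0.790 to 0.927) in CA1, 0.889 (0.824 to 0.959) in granule, 0.878 (0.788 to 0.977) in CA2 and CA3 and 0.822 (0.753 to 0.898) in subicular and cortical neurons. Thalamic and habenular neurons, at 1.01, and GABAergic neurons, at 0.983, stood at equality within counting error. The log2 ratio was below 0 in 8 of the 9 classes with enough UMIs, under each of the 4 scalings tried. Grin2a leaned the same way, with 0.909 (0.891 to 0.928) over all kept nuclei and 8 of 10 classes below 0 under each scaling. Its interval left out 1 in 4 of those 10 classes by the main scaling. With the intron-length median taken off, its log2 ratio was -0.0028 in CA2 and CA3 and -0.0018 in thalamic and habenular neurons. GABAergic neurons went the other way, at 0.12 by the main scaling. Gria2, in contrast, was below 0 in 9 of 12 classes by the main scaling, in 6 by TMM or without Malat1 and in 4 after taking off the median of genes of like intron length, so no direction is given for it.

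Astrocytes held a call in each direction. Grin2c had 269.7 CPM in the doxorubicin and 372 CPM in the control library, a ratio of 0.726 (0.618 to 0.852). Gria3 had 227 (199.8 to 257) CPM in the doxorubicin and 155 (130 to 184) CPM in the control library, a ratio of 1.46 (1.18 to 1.82). The neuron markers summed to 3769 CPM in astrocytes of the doxorubicin and 3395 CPM in those of the control library, and their part in the Gria3 difference was not tested. Both calls were lost when doublets were kept, at log2 ratios of -0.30 for Grin2c and 0.19 for Gria3, and when nuclei were thinned to 1000 UMIs, at -0.41 for Grin2c and 0.33 for Gria3. Of all astrocyte genes 10% passed the rule.

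The other 7 calls were lower in the doxorubicin library and lay in oligodendrocytes, fibroblast-like cells, precursor cells and microglia. Of all genes that entered, 16.3% passed the rule in oligodendrocytes, 19.9% in fibroblast-like cells, 10.4% in precursor cells and 9.14% in microglia, in either direction. The shares that were lower were 6.89% in oligodendrocytes, 8.16% in fibroblast-like cells, 6.37% in precursor cells and 5.65% in microglia. In oligodendrocytes Grin1 had 135 CPM in Dox and 198 CPM in control (ratio 0.681, 0.537 to 0.860). Grin2a had 472 CPM in Dox and 594 CPM in control there (0.793, 0.698 to 0.902), and Grin2b 462 CPM in Dox and 585 CPM in control (0.789, 0.693 to 0.898). Both the Grin2a and Grin2b calls in oligodendrocytes were lost with TMM scaling, at log2 ratios of -0.31 for each, and with the median of genes of like intron length taken off, at -0.19 for Grin2a and -0.20 for Grin2b. They were also lost when doublets were kept, at -0.14 for Grin2a and -0.26 for Grin2b, and with at least 600 genes a nucleus, at -0.12 for Grin2a and -0.32 for Grin2b. The neuron markers there were likewise lower, at 7554 CPM in the doxorubicin and 9243 CPM in the control library. In fibroblast-like cells Gria2 had 1282 CPM in Dox and 1979.8 CPM in control (0.648, 0.550 to 0.762) and Grin2b 220.2 CPM in Dox and 409.6 CPM in control (0.538, 0.362 to 0.791). Neuron markers there came to 4218 CPM in Dox and 5661 CPM in control. Precursor cells had 229 CPM of Grin2b in the doxorubicin and 322 CPM in the control library (0.712, 0.511 to 0.989), a call lost with TMM scaling and with the intron-length median taken off, with neuron markers at 5941 CPM in Dox and 6425 CPM in control. Microglia had 218 CPM of Grin1 in the doxorubicin and 325 CPM in the control library (0.670, 0.527 to 0.851), while their neuron markers had 12463 CPM in Dox and 11644 CPM in control. The part of neuron RNA in these calls was not tested.

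Around the receptors, 70 partner genes in 6 lists were read by the same rule, beside the 4.03% higher and 5.19% lower of all pairs. Of other ionotropic glutamate receptors (kainate and delta subunits), 38 pairs of a gene and a class entered, with none higher and 3 lower in the doxorubicin library. Grik5, a kainate receptor subunit, was among them, at 139.8 CPM in doxorubicin against 189 CPM in control granule neurons (0.738) and 146 CPM in doxorubicin against 199 CPM in control CA1 neurons (0.733). Of AMPA auxiliary and assembly proteins, 78 pairs entered, with 1 higher and 6 lower. In CA1 neurons Cacng7, a TARP of the stargazin family, had 19.8 CPM in doxorubicin and 13.0 CPM in control (1.52, 1.03 to 2.29), and Frrs1l, which helps AMPA receptors assemble, 81.3 CPM in doxorubicin and 106 CPM in control (0.768, 0.656 to 0.899).

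Scaffold and trafficking genes gave 136 pairs, none higher and 7 lower, near the share of all pairs that were lower. In CA1 neurons these included Shank3, a postsynaptic scaffold, at 19.8 CPM in doxorubicin and 28.2 CPM in control (0.702), and Ephb2, a receptor tyrosine kinase, at 11.9 CPM in doxorubicin and 19.0 CPM in control (0.625). Kinases and phosphatases gave 123 pairs, 4 higher and 3 lower, among them Camk2d in granule neurons at 31.6 CPM in doxorubicin and 48.3 CPM in control (0.654). Co-agonist genes gave 6 pairs with no call, and the editing enzymes 14 pairs with none higher and 2 lower. Adarb1, whose enzyme edits the Gria2 codon shown above, had 127 CPM in doxorubicin and 154 CPM in control granule neurons, a ratio of 0.826 (0.732 to 0.932) that did not pass the rule. The lists were drawn up with earlier results of these data known, and their counts carry no test.

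Doxorubicin plus ACY-1083 was set against doxorubicin alone to ask what the inhibitor added, and here nearly every subunit gene differed. By CPM, Gria1, Gria4, Grin2a and Grin2b were higher and Gria2 was lower in every neuron class. Gria3 passed the rule in none and Grin1 in CA1 alone. CPM is a share of UMIs, and DoxACY nuclei held more UMIs. Per nucleus, Gria2 UMIs were higher in DoxACY than in Dox in each neuron class. Granule neurons, for one, had 38294 in 2593 DoxACY nuclei and 28588 in 2693 Dox nuclei. Of 108 pairs 87 entered, 52 of them higher and 16 lower. Of all 78055 pairs of genes and classes, 75.3% passed the same rule, 34.6% higher and 40.7% lower. The 68 of 87 is close to that total, while the members' calls lay more often in the higher direction, and most of the 9 genes have long introns.

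**Figure D5:**
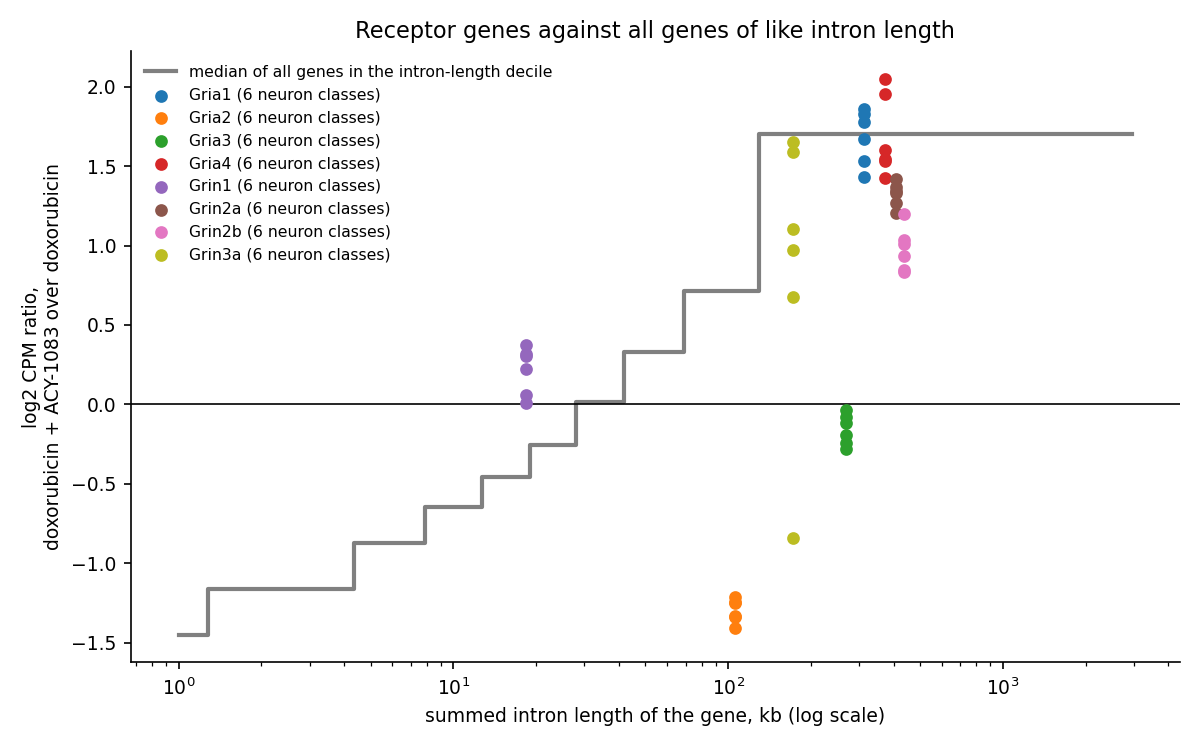
Log2 ratio of CPM in the doxorubicin plus ACY-1083 over the doxorubicin library against summed intron length (kb, log axis). Each coloured point is a subunit gene in 1 of the 6 neuron classes (Grin2c had too few UMIs) and the grey steps are medians of all genes in 10 intron-length bins. The steps climb from -1.45 to 1.70, with Gria2 and Gria3 far below their step and Grin1 above its own.

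Gria1 was 3.63-fold (3.50 to 3.76) higher in granule neurons, at 2776 CPM in DoxACY and 765 CPM in Dox. In CA1 neurons it was 3.18-fold (3.08 to 3.30) higher, at 3004 CPM in DoxACY and 943 CPM in Dox. Over the 6 neuron classes its log2 ratio ran from 1.43 to 1.86. Gria4 ran from 1.43 to 2.05, the largest being CA1 neurons at 353 CPM in DoxACY and 85.0 CPM in Dox. Gria2 had 3019 CPM in DoxACY against 7000.0 CPM in Dox in granule neurons, a ratio of 0.431 (0.425 to 0.438), and its log2 ratio lay between -1.41 and -1.21 in all 6 neuron classes. Gria3, at 769 CPM in DoxACY and 833 CPM in Dox in granule neurons (0.923, 0.888 to 0.960), lay between -0.28 and -0.04, inside the limits of the rule.

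Among NMDA genes Grin2a was 2.59-fold (2.52 to 2.66) higher in granule neurons, at 3584 CPM in DoxACY and 1385 CPM in Dox. Grin2b was 1.78-fold (1.73 to 1.84) higher there, at 1906 CPM in DoxACY and 1070.0 CPM in Dox. Over the neuron classes the log2 ratio ran from 1.21 to 1.42 for Grin2a and from 0.83 to 1.20 for Grin2b. Grin1 ran from 0.01 in thalamic and habenular to 0.37 in CA1 neurons. Grin3a was 3.33-fold (2.42 to 4.69) higher in precursor cells, at 445 CPM in DoxACY and 134 CPM in Dox. In CA2 and CA3 neurons it was lower, at 10.4 CPM in DoxACY and 18.6 CPM in Dox (0.561, 0.376 to 0.848). Grin2c in astrocytes was lower, at 214 CPM in DoxACY and 269.7 CPM in Dox (0.793, 0.685 to 0.919).

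The size of the difference followed intron length over all genes. The median log2 ratio was -1.45 in the shortest of 10 intron-length bins and 1.70 in the longest, which holds Gria1, Gria3, Gria4, Grin2a, Grin2b and Grin3a. It was 0.71 in the bin of Gria2 and -0.46 in that of Grin1 and Grin2c. With the median of its bin taken off, the log2 ratio over all kept nuclei was 0.06 for Gria1, 0.00 for Gria4, -0.32 for Grin2a and -0.78 for Grin2b. By that measure 12 pairs were higher and 48 lower, against 28.7% higher and 25.7% lower over all pairs, so the direction of Gria1, Gria4, Grin2a, Grin2b and Grin3a depends on the scaling.

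Most of the genes departed from the median of their intron-length bin. The longest bin is wide, from 130 to 2951 kb, and the spread of genes within a bin is not given. A departure is thus from the bin median and not from genes of closely matched length. Over all kept nuclei the log2 ratio less the median of the bin was -1.95 for Gria2, -1.81 for Gria3, 0.74 for Grin1, -0.57 for Grin3a and -0.46 for Grin2c, beside the -0.78 of Grin2b. In astrocytes, the only class where Grin2c entered, its log2 ratio was below 0 by the main scaling but not with the bin median taken off. Against the bin median Grin2c was therefore lower over all kept nuclei but not within astrocytes. Astrocytes held 2211843 UMIs in DoxACY and 1119685 in Dox, beside library totals of 62151258 and 21458785. The part of that difference in the value over all kept nuclei was not tested. Gria2 was below 0 in 12 of 12 classes under all 4 scalings, each of which compares shares of UMIs and not UMIs per nucleus. Gria3 was below 0 in 10 of 11 classes by the main scaling but in 1 of 11 by TMM, and Grin1 was below 0 in 0 of 10 by the main scaling and in 6 of 10 without Malat1. Among nuclei thinned to equal depth 51 of the 68 calls had a value. Of these, 43 were called the same way, 4 kept their sign without a call and 4 changed sign. Gria1 was found in 92.8% of CA1 nuclei of DoxACY and 58.4% of those of Dox at 1000 UMIs each (99.4% and 80.5% unthinned, at medians of 7123 and 2100 UMIs). Drug, intron content and the Cell Ranger version cannot be told apart in these 2 libraries.

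The partner genes were read in the same way. Their counts stand beside the 34.6% higher and 40.7% lower of all pairs, or 28.7% and 25.7% with the median of the intron-length bin taken off. Of other ionotropic receptors 57 of 67 pairs were higher and 5 lower in DoxACY. Of these, the delta receptor gene Grid1, which has 757 kb of intron, had 489.6 CPM in DoxACY and 17.4 CPM in Dox in CA1 neurons (28.1-fold, 22.1 to 36.4). Scaffold genes had 115 of 185 pairs higher and 29 lower. Dlgap2 had 1468 CPM in DoxACY and 73.1 CPM in Dox in CA1 neurons, and Dlg2, the gene of the scaffold PSD-93 with 1956 kb of intron, had 5221 CPM in DoxACY and 402 CPM in Dox. AMPA auxiliary genes had 72 of 125 pairs higher and 37 lower, with Shisa6 at 634 CPM in DoxACY and 63.9 CPM in Dox and Syndig1 at 92.7 CPM in DoxACY and 7.92 CPM in Dox in CA1 neurons.

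Kinases and phosphatases had 59 of 147 pairs higher and 41 lower, with Prkca at 515.7 CPM in DoxACY and 82.4 CPM in Dox and Prkcb at 833 CPM in DoxACY and 221 CPM in Dox in CA1 neurons. Co-agonist genes had 9 of 14 pairs higher and 2 lower. Srr, the serine racemase that makes the co-agonist D-serine and has 15.03 kb of intron, had 72.9 CPM in DoxACY and 39.6 CPM in Dox in CA1 neurons. The editing enzymes stayed closest, with 1 of 18 pairs higher and 1 lower. Adarb1 had 65.3 CPM in DoxACY and 76.8 CPM in Dox in CA1 neurons (0.850, 0.743 to 0.975), inside the limits of the rule.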

How the data were processed

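Single-nucleus RNA of mouse hippocampus was measured in 3 libraries, 1 per group. The deposited matrices give raw UMI counts, not normalized, for each gene in each barcode. Per the file headers, the Dox and control matrices came from Cell Ranger 4.0.0 and the DoxACY matrix from 5.0.0. The submitters' processing notes name 6.0.0 and mm10. The sources used here do not say whether intron reads entered the counts. The lowest barcode of each library had 500 UMIs.

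Nuclei with at least 300 genes and under 5% mitochondrial UMIs were kept. Scrublet's automatic threshold marked 1, 1 and 3 barcodes in DoxACY, Dox and control, so scores above 0.25 were removed instead (344, 573 and 452 barcodes, or 2.82%, 4.69% and 4.14%). Counts were scaled to 10000 per nucleus, log-transformed and z-scored within each library. In scanpy 1.11.5, 2000 variable genes without the members and partner genes, 30 principal components, 15 neighbours and Leiden resolution 1 (leidenalg 0.10.2) gave the clusters. A cluster was named for the class whose markers stood highest on average over the rest, with 3 markers detected. The mean had to reach 0.7 on the log2 scale, with a marker among the cluster's 10 leading genes. Below 0.7, 2 markers among the leading genes sufficed, as in a subicular and cortical cluster of 656 nuclei at 0.63. A cluster of 61 nuclei stood at 2.55 for astrocytes but stayed unnamed, with no marker among its leading genes. The minimum of 0.7 was set after seeing the data. Naming left 7.12%, 7.17% and 7.34% of nuclei in DoxACY, Dox and control unnamed. Interneuron subclasses were named within GABAergic neurons, against the other GABAergic nuclei, by a lower minimum of 0.3 with 3 markers detected. The medial clusters stood at 0.63 and 0.57, below 0.7, and the caudal ones at 1.29 and 1.07. The unnamed interneuron clusters count in the GABAergic class alone.

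UMIs were summed per class and library. Ratios of CPM have exact Clopper-Pearson intervals conditional on the sum (scipy 1.17.1), with 0.5 counts added for log2 values. The step was tested on simulated data. Other scalings were TMM factors, totals without Malat1, and the median of the gene's intron-length decile taken off. GENCODE vM21 (GRCm38) gave intron lengths and matched 32235 of 32285 genes (99.8%). Grin3a overlaps Ppp3r2 on the same strand, and Grin1 and Grin2b overlap antisense genes, so UMIs there may be shared. Named beside the members were the 3 most alike genes and, per partner list, the 2 genes with the most extreme ratio whose interval left out 1 in granule and CA1 neurons. Some genes that this rule names are not reported here. The members, marker lists and partner lists were chosen with earlier results of these data known.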

Additional observations from a re-analysis of the deposited data

Results flagged for a closer look

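Of the 9 genes, 2 passed the rule for a difference in opposite directions in different classes between the doxorubicin plus ACY-1083 and doxorubicin libraries, and in neither case was the difference between the classes tested. Grin2b had a log2 ratio of 1.20 in thalamic and habenular neurons and of -1.02 in choroid plexus epithelium. It had 125 CPM in choroid plexus of DoxACY and 253 CPM in that of Dox. These rest on few UMIs: Grin2a and Grin2b together had 99 in DoxACY and 74 in Dox, of which 44 and 27 were Grin2a. The summed neuron markers in choroid plexus were also lower, at 1107 CPM in DoxACY and 2425 CPM in Dox. The part of neuron RNA in this Grin2b difference was not tested. Grin3a had a log2 ratio of 1.72 in oligodendrocyte precursor cells and of -0.84 in CA2 and CA3 neurons, where it rests on 72 UMIs in the doxorubicin plus ACY-1083 and 40 UMIs in the doxorubicin library.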

How the results depend on the processing

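The count of genes with 1 highest class in all libraries was 7 under each regrouping of nuclei tried and 9 without the doxorubicin plus ACY-1083 library, an alternative chosen after seeing the data. For doxorubicin against control (8 lower, 1 higher), no call with a value changed sign under any alternative, though only 4 of the 9 had a value with thinning and 7 with at least 600 genes. Lower calls were 5 with TMM scaling, 5 after taking off the intron-length decile, 5 with at least 600 genes a nucleus and 2 with nuclei thinned to 1000 UMIs. Higher calls were 2 with no filter on low counts, with the intron-length decile taken off, with members allowed among the variable genes, with doublets kept and with at least 600 genes. For doxorubicin plus ACY-1083 against doxorubicin (52 higher, 16 lower), taking off the intron-length decile gave 12 higher and 48 lower, and thinning gave 33 higher. Of the 68 calls, 42 reversed in the sign of their log2 ratio with the intron-length decile. So did 3 of the 47 that had a value with each library clustered alone and 4 of the 51 with thinning. A reversed sign is not an opposite call, since some of these ratios lay inside the limits of the rule. In granule, CA1 and GABAergic neurons, the log2 ratios that reversed with the intron-length decile were Gria1 in CA1 neurons (-0.0071), Gria4 in GABAergic (-0.12) and granule neurons (-0.14), Grin2a in CA1 (-0.34), GABAergic (-0.45) and granule neurons (-0.20), Grin2b in CA1 (-0.83), GABAergic (-0.62) and granule neurons (-0.73), and Grin3a in CA1 (-0.0916), GABAergic (-0.0053) and granule neurons (-0.89). The Grin2a share moved to 64.0% in granule neurons of the doxorubicin plus ACY-1083 library with thinning. In CA1 neurons it moved to 60.7% with at least 600 genes and 58.7% with thinning in that library, to 52.1% and 52.3% in the doxorubicin library, and to 55.2% with at least 600 genes and 52.8% with members allowed among the variable genes in the control library. Beyond what each alternative's construction fixes, the cause was not tested. No paired analysis was possible because each group is 1 library. Depth limits choroid plexus and fibroblast-like cells most, with 8 and 5 of the 29 pairs that had too few UMIs between doxorubicin and control.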
